A study of Rattus norvegicus with 8 samples.

Results

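The RNA of axons that had been exposed to amyloid oligomers or to vehicle was compared across the named, well measured transcripts of the axonal compartment. These are the rows of the axonal comparison that carry a rat gene symbol in the deposited table and have a mean normalized count (reads divided by a size factor for each library, averaged over the 4 axonal libraries) of at least 45. The rule kept 877 rows, with 875 distinct symbols, out of 26405. Reads were present for 23879 rows and an adjusted p for 1321, of which 882 carry a symbol. The 444 rows with an adjusted p that the rule left out, nearly all of them identifiers without a symbol, serve as background.

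Hippocampal neurons from rat embryos were kept for 10 to 14 days in microfluidic chambers, whose narrow channels let axons, but not cell bodies, pass to a second compartment. Only the axons were then exposed for 24 h to soluble oligomeric Abeta(1-42), a form of the amyloid peptide, or to vehicle, and RNA of both compartments was sequenced on an Illumina MiSeq. There were 4 groups of 2 samples each: axons with Abeta, axons with vehicle, and the cell bodies (soma) belonging to either treatment. The results concern the axonal groups, with the somatic groups as a comparison; every group came from embryonic hippocampal cultures, and their strain is not given in the sources used here. The labels do not say whether duplicates came from separate cultures, so a p-value reflects the spread of these 2 samples per group, and that spread may be technical. The header does not name the numerator of the fold change. A transcript is therefore placed on the positive side (deposited log2 fold change above 0) or the negative side (below 0), without saying which treatment either side stands for.

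Axons carry a selected set of messenger RNAs that are translated far from the cell body, and this local synthesis takes part in axon growth, in maintenance and in signals sent back to the nucleus. Soluble oligomers of Abeta are studied as an early toxic form of the peptide that accumulates in Alzheimer disease. Cultures of embryonic hippocampus usually hold some dividing non-neuronal cells, above all astrocytes and fibroblast-like cells of the meninges, whose processes can also reach the axonal side of a chamber.

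The table holds no column per library, but the whole reads of each library could be recovered from the many digits of the deposited means for 874 of the 877 transcripts. The recovered libraries cannot be tied to a sample title and are named by their side and a number, with 1 for the larger size factor. In the 23698 recovered genes there were 425420 and 422370 reads for the 2 positive-side libraries, against 293288 and 231854 for the 2 negative-side ones. Genes with a mean above 1000 were not solved and are missing from these totals, and their means reach 233184. The totals and the shares below therefore do not give the depth or composition of whole libraries. The recovered named transcripts took 26.8% and 30.8% of the recovered reads on the positive side against 17.9% and 20.6% on the negative side. Both positive-side libraries thus lay above both negative-side ones. Transcripts with reads in axons but none in soma took 2.80% and 1.25% on the positive side, against 5.59% and 4.62% on the other, the reverse order. The part that these differences of composition have in the results was not tested. Across the named transcripts, the log2 ratio of the 2 libraries had an SD of 0.58 within the positive side and 0.83 within the negative side, against 0.91 to 1.17 between libraries of different sides.

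Markers of cell types were counted before the results are read. Counts and sums took only rows with a deposited symbol, here and in the gene lists below. This left out rows with reads but no symbol, among them the neuronal markers Map2, Snap25, Mapt, Slc17a7 and Camk2b. Of 26 astrocyte markers with reads, 19 were among the named transcripts, and their summed level over all 26 was 7793 and 9562 normalized counts on the positive side, against 1861 and 3231 on the negative side. Fibroblast and meningeal markers summed to 2362 and 3388 against 698 and 528. Both sums were thus higher in each positive-side library than in each negative-side library. Neuronal markers summed to 1159 and 1260 against 746 and 1391, so the sides overlapped. Microglia and macrophage markers had the opposite order, with 193 and 78.3 against 387 and 382 normalized counts. Endothelial and mural markers summed to 109 and 97.0 against 211 and 155, and oligodendrocyte markers to 109 and 78.3 against 133 and 85.1. Of the list of nuclear and dendritic transcripts, 5 with a deposited symbol had reads (Rbfox3, Dlg4, Shank1, Shank3 and Arc), while its nuclear RNAs such as Malat1 were not matched. The 5 summed to 270 and 314 against 289 and 263. None of the markers matched in the table was at 0. The libraries labelled as axons thus held reads of neuronal, glial and fibroblast markers. In such bulk RNA, fewer cells of a type and less RNA per cell cannot be told apart, and the part of these cell types in the results below was not tested.

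The comparison asks which axonal transcripts differ with the treatment of the axons. In the authors' deposited table, 111 of the 877 named transcripts had an adjusted p under 0.05 (DESeq2) and are termed called; 98 lay on the positive side and 13 on the negative side. This is 12.7% of them, beside 23.0% of all 1321 tested genes. On the positive side the share was 11.2% of the named transcripts and 8.78% of all tested genes. On the negative side it was 1.48% of the named transcripts and 14.2% of all tested genes. The tested genes that the rule left out had the other balance, with 4.05% called positive and 39.4% called negative. Genes that are abundant in soma stood at a median of 0.44 in the axonal comparison, and when this shift was subtracted, 57 named transcripts were called positive and 24 negative. The negative share of calls was then 29.6%, against 11.7% as deposited.

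Called positive transcripts had a median log2 fold change of 1.91 in the authors' deposited table, with folds of 2.15 to 13.5. Called negative ones had a median of -1.59, with folds of 2.24 to 4.24. The 766 that were not called had a median of 0.43, and 588 of them lay above 0 in the authors' deposited table. The median was 0.51 over all 877 and 0.36 over all tested genes, so the whole body of named transcripts lay toward the positive side, and 480 of the 877 (54.7%) lay above the shift of 0.44.

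**Figure D1:**
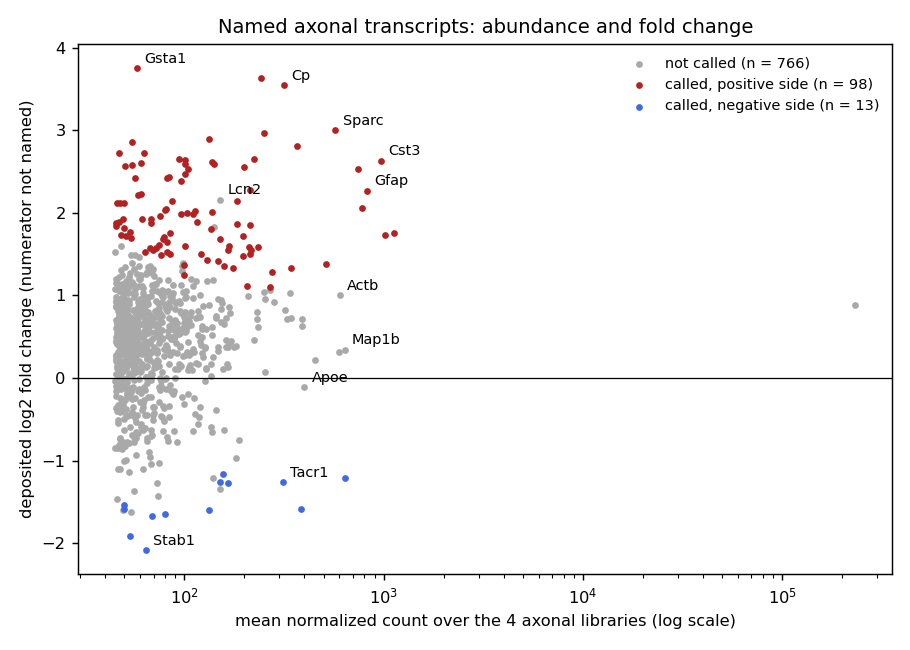
Each point is 1 of the 877 named axonal transcripts, with its mean normalized count on a log axis and its deposited log2 fold change. Red points (98) were called on the positive side, blue points (13) on the negative side, and grey points (766) were not called; called points reach 13.5-fold on the positive side and 4.24-fold on the negative side.

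Beyond the few transcripts of smallest adjusted p, the recovered libraries show how far the sides stood apart. All 96 recovered positive calls had both positive-side libraries above both negative-side ones, and 86 of them differed by at least 2-fold in each of the 4 pairs of libraries. Within the positive side the 2 libraries of such a transcript differed by a median of 1.39-fold, and within the negative side by 1.58-fold. Leaving out 1 library moved the ratio of the sides by more than 1.5-fold for 1 of the 96 transcripts without positive-side library 1, for 15 without positive-side library 2, for 15 without negative-side library 1 and for 24 without negative-side library 2. Such values are given with the genes below, as the log2 ratio of the sides without the library in question. Over all named transcripts the sides did not overlap with the positive side above in 52.3%, and in 48.3% of all tested genes that were recovered. A gap between the sides was therefore common and marks no transcript on its own. The negative side was above in 10.4% of the recovered named transcripts and in 15.2% of the 1140 tested genes that were recovered. Of the 444 tested genes that the rule left out, 266 were recovered, so both background shares miss the rest.

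Genes for secreted and matrix-bound proteins were among the positive calls of smallest adjusted p. Sparc (ENSRNOG00000012840), a collagen-binding glycoprotein that modulates the attachment of cells to their matrix, had 836 and 1217 normalized counts on the positive side, against 127 and 109 on the negative side. Its log2 fold change in the authors' deposited table was 3.0 (SE 0.40, adjusted p = 3.78e-11). Cst3 (ENSRNOG00000005195), the secreted cysteine protease inhibitor cystatin C, had 1125 and 2247 against 249 and 255 normalized counts. Its positive-side libraries differed from each other more than its negative-side ones did, and each stood well above both of those. Its log2 fold change was 2.63 (SE 0.42, adjusted p = 5.73e-08) by the authors' deposited table.

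**Figure D2:**
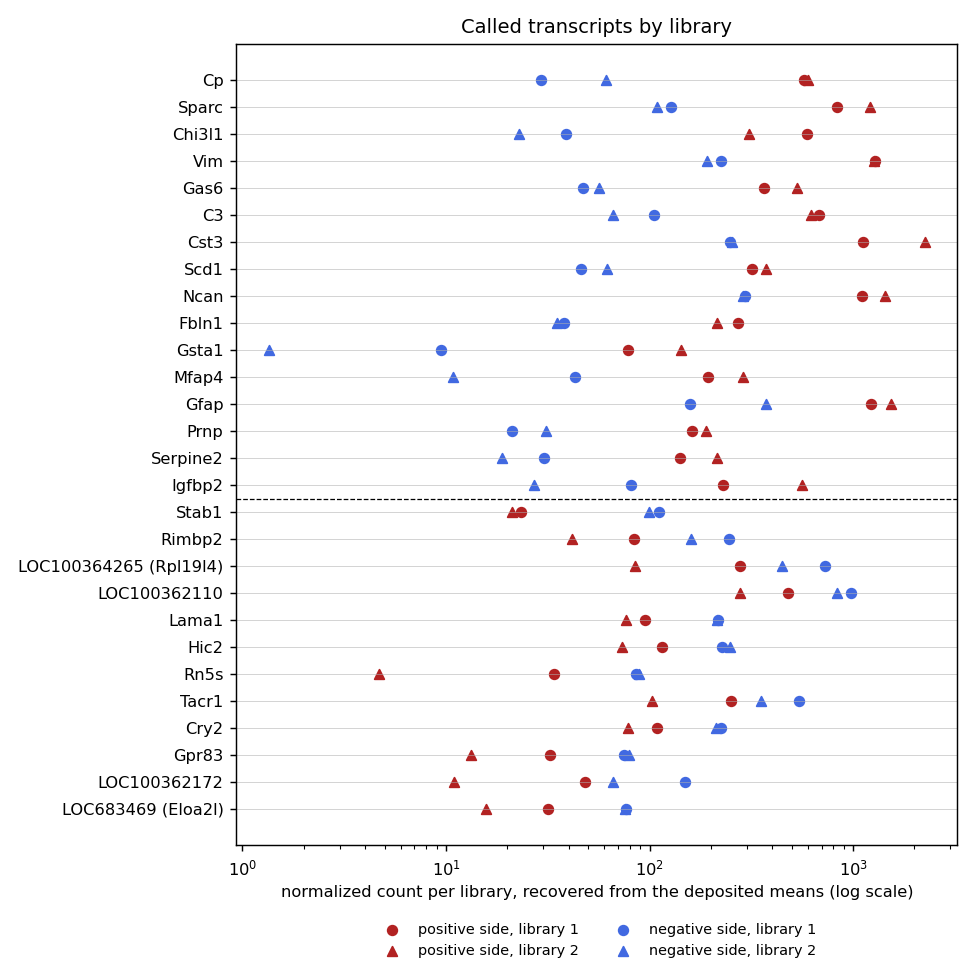
Normalized counts per library, recovered from the deposited means, on a log axis for the 16 recovered positive calls of smallest adjusted p (above the dashed line) and 12 of the 13 negative calls (below it). Red marks are the 2 positive-side and blue marks the 2 negative-side libraries; the colours do not overlap in any row, and the lowest mark is Gsta1 at 1.35 in negative-side library 2.

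Of 44 genes for the extracellular matrix and matricellular proteins with reads, 22 had a mean of at least 45, and 13 of these were called positive and 1 negative. Their median log2 fold change was 1.49, beside 0.36 for all tested genes, per the authors' deposited table. Over all 44 with reads it was 0.87 there. The mean of 45 is taken over both sides, so a high side alone can lift a transcript past it. After the shift was subtracted, 8 positive calls and 1 negative call were made. The fibrillar collagen genes Col1a1 and Col1a2, which encode both chains of type I collagen, had 221 and 497 against 80.9 and 52.7, and 93.0 and 238 against 8.40 and 35.1 normalized counts. For both, positive-side library 2 held more than 2-fold the level of library 1, and without it the log2 ratio of the sides was 1.72 for Col1a1 and 2.10 for Col1a2. The ratio of Col1a2 also turned on the negative side, at 2.24 without library 1 there and 4.30 without library 2. In the authors' deposited table Col1a1 stood at 2.28 (SE 0.50, adjusted p = 0.000236).

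Fbln1, which encodes the elastic fibre protein fibulin, had 273 and 214 against 37.8 and 35.1 normalized counts, with narrow spread on either side. Mgp, a matrix protein that inhibits calcification, had 213 and 133 against 35.7 and 18.9. Ctgf, a matricellular protein also known as Ccn2, had 123 and 360 against 44.1 and 23.0, so its positive-side libraries were far apart and its log2 ratio was 1.88 without the higher. The log2 fold changes of Fbln1, Mgp and Ctgf were 2.59, 2.47 and 2.62 in the authors' deposited table. The collagen chaperone Serpinh1, the microfibrillar chains Col6a1 and Col6a2, the small proteoglycan Bgn, the laminin chain Lamc1 and the metalloproteinase inhibitor Timp3 were also called positive, with log2 fold changes of 1.36 to 1.92 in the authors' deposited table. Timp3 had 37.0 and 117 against 18.9 and 16.2 normalized counts, so its call leaned on positive-side library 2, with a log2 ratio of 1.08 without it and 2.73 without library 1.

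Not every matrix gene lay on that side. Lama1, an early laminin chain of basement membranes, had 95.2 and 76.7 against 216 and 215 normalized counts and was called negative at -1.27 (adjusted p = 0.0227) by the authors' deposited table. Fbn1, the main protein of microfibrils, had 42.3 and 44.6 against 53.6 and 62.1, and was not called at -0.38. The proteoglycan Ncan, a brain matrix component made by neurons and astrocytes, had 1105 and 1432 against 294 and 288 normalized counts. Its log2 fold change was 2.06 in the authors' deposited table.

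Secreted growth factors and the proteins that bind them had 10 named members of 39 with reads, of which 5 were called positive and 0 negative (4 positive after the shift was subtracted). Their median log2 fold change was 1.41 over the 10 but 0.33 over all 39 in the authors' deposited table. Gas6 (ENSRNOG00000018233), a vitamin K-dependent ligand of the receptor kinases Axl and Mertk, had 364 and 531 against 47.3 and 56.7 normalized counts. It stood at 2.97 (SE 0.44, adjusted p = 3.95e-09) by the authors' deposited table. The insulin-like growth factor binding proteins Igfbp2, Igfbp3 and Igfbp7 were called, at 2.65, 1.98 and 2.12 in the authors' deposited table. Igfbp2 had 231 and 559 against 80.9 and 27.0 normalized counts, Igfbp3 119 and 193 against 31.5 and 40.5, and Igfbp7 83.1 and 69.6 against 12.6 and 17.6. Igfbp2 was the most uneven of them, with a log2 ratio of 2.10 without positive-side library 2 and 3.87 without negative-side library 1. Igfbp5, another member of that family, had 162 and 223 against 121 and 162 and was not called (0.42, adjusted p = 0.556, by the authors' deposited table). Ptn, the heparin-binding cytokine pleiotrophin, had 110 and 144 against 32.6 and 51.3 and was called at 1.5, while its receptor Ptprz1 (147 and 182 against 86.1 and 173) was not called at 0.33, per the authors' deposited table. Ntrk2, the receptor of brain-derived neurotrophic factor, had 86.2 and 87.6 against 68.3 and 74.3 normalized counts and stood at 0.27 without a call in the authors' deposited table.

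Proteases and their inhibitors had 11 named members of 23 with reads, 8 of them called positive and 0 negative (6 positive after the shift was subtracted, without Ctsd and Timp3). Their median log2 fold change was 1.92 over the 11 and 1.05 over all 23 in the authors' deposited table. Serpine2, also called protease nexin, inhibits thrombin and plasminogen activators. It had 141 and 214 against 30.5 and 18.9 normalized counts and stood at 2.64 (SE 0.53, adjusted p = 5.28e-05) by the authors' deposited table. The secreted serine protease Htra1 had 67.3 and 146 against 17.9 and 10.8, and the lysosomal protease Ctsd 245 and 342 against 70.4 and 130 normalized counts. LOC100911545, named A2m in RefSeq, a broad protease inhibitor of the blood and of reactive tissue, had 296 and 153 against 32.6 and 68.9. Htra1, Ctsd and LOC100911545 stood at 2.60, 1.48 and 2.01 in the authors' deposited table. The log2 ratio was 2.23 for Htra1 without positive-side library 2 and 2.78 for LOC100911545 without negative-side library 2.

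Complement and innate immune factors had 36 genes with reads but only 6 with a mean of at least 45, of which 4 were called positive and 0 negative, and 3 after the shift was subtracted. The central complement component C3 had 679 and 622 against 105 and 66.2 normalized counts and stood at 2.80 (adjusted p = 3.95e-09) by the authors' deposited table. C1s, a protease that starts the classical pathway, had 93.0 and 113 against 31.5 and 4.05 (2.22, adjusted p = 0.012, by the authors' deposited table). The last value rests on 3 reads, and the log2 ratio of C1s ran from 1.71 without that library to 4.67 without the other negative-side one. Stat3, the transcription factor that relays interleukin-6 signals, had 108 and 137 against 47.3 and 21.6 normalized counts and was called at 1.68 in the authors' deposited table, with a log2 ratio of 2.50 without negative-side library 1. Lcn2, an iron-binding acute phase protein, had 271 and 275 against 55.7 and 4.05, so the sides were wide apart but the negative-side libraries differed more than 10-fold. It was not called (2.16, SE 0.99, adjusted p = 0.103, by the authors' deposited table). B2m, the light chain of class I histocompatibility molecules, had 141 and 127 against 31.5 and 85.1 and was not called at 1.12 there.

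Serpina3n, a serine protease inhibitor of the acute phase known as a marker of reactive astrocytes, had 103 and 89.2 against 14.7 and 12.2 normalized counts in axons, with both sides tight. It stood at 2.58 (SE 0.60, adjusted p = 0.00074) by the authors' deposited table, and its somatic mean there was 0.842. Its promoter is shown because acute phase genes are often controlled by STAT factors. The stretch covers 250 bases before and 50 after the start, at chr6:129088142-129088441 on the plus strand of assembly GRCr8 (RefSeq), and capitals mark the match to the STAT palindrome TTCNNNGAA.
Serpina3n: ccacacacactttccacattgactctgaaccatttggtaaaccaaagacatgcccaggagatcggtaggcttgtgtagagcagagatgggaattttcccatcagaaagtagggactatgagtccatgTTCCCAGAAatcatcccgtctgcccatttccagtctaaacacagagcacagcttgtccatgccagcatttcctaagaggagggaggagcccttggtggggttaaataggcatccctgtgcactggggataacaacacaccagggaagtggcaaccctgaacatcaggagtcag
That palindrome, searched on both strands, was present in 3.9% of the 77 promoters matched to positive calls (3 promoters, of Gsta1, Ccdc80 and Serpina3n). It was present in 5.36% of 597 promoters of uncalled transcripts and in 8.68% of all 27457 promoters of the RefSeq table. A match describes the letters and shows no binding.

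Metal handling and oxidative stress genes gave 5 positive and 0 negative calls among 11 named members of 43 with reads, and 3 were called after the shift was subtracted. Their median log2 fold change was 0.94 over the 11 and 0.78 over all 43 in the authors' deposited table. Gsta1 (ENSRNOG00000013484), a glutathione transferase that detoxifies lipid peroxides, had the widest fold of all named transcripts, with 78.6 and 142 against 9.45 and 1.35 normalized counts. These negative-side values rest on 9 reads and 1 read. Its fold was 13.5, or 3.75 on the log2 scale (SE 0.69, adjusted p = 6.94e-06), by the authors' deposited table, and the log2 ratio ran from 3.55 without negative-side library 2 to 6.35 without negative-side library 1. LOC689130, named Fth1 in RefSeq, encodes the heavy chain of ferritin, which stores iron. It had 679 and 826 against 257 and 301 normalized counts and was called at 1.38 (adjusted p = 0.00639) by the authors' deposited table; reads of its many near-identical copies in the genome may have been split. The peroxidase Prdx6 had 69.5 and 82.2 against 7.35 and 32.4 and was called at 1.73, while its relatives Prdx1 (52.2 and 88.4 against 31.5 and 37.8) and Prdx2 (77.1 and 81.4 against 45.2 and 36.5) were not called at 0.94 and 0.88, per the authors' deposited table. The log2 ratio of Prdx6 ran from 1.23 without negative-side library 1 to 3.37 without library 2. Whether these peroxidases differ from each other was not tested.

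Mt2A, a metallothionein that binds zinc and copper, had 101 and 182 against 31.5 and 13.5 normalized counts. It stood at 2.42 (SE 0.58, adjusted p = 0.00115) by the authors' deposited table. Without negative-side library 1 its log2 ratio was 3.39. Its promoter is shown because metallothionein genes are the textbook targets of a metal-sensing factor that binds the core letters TGCACNC or TGCGCNC. It lies at chr19:10838659-10838958 on the minus strand of GRCr8 (RefSeq), again 250 bases before to 50 after the start, and capitals mark 4 matches on either strand.
Mt2A: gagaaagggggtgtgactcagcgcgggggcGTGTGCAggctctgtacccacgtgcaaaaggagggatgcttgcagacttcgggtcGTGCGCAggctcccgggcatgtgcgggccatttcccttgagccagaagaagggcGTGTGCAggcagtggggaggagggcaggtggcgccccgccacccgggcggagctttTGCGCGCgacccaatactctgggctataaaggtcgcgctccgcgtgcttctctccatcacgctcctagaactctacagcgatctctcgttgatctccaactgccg
Such a match was present in 37.7% of the 77 promoters of positive calls, in 44.7% of the 597 promoters of uncalled transcripts and in 25% of all 27457 promoters. The difference between these shares was not tested.

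Genes of cholesterol and fatty acid synthesis had 16 named members of 33 with reads. All 16 had a deposited log2 fold change above 0, and 8 were called positive (5 after the shift was subtracted). The median was 1.24 over the 16 and 0.88 over all 33 in the authors' deposited table. The enzymes of the sterol branch that were called are Hmgcs1, which makes the precursor of mevalonate, the squalene synthase Fdft1, the squalene epoxidase Sqle and the demethylating oxidase Msmo1. Hmgcs1 had 425 and 561 against 174 and 203 normalized counts and stood at 1.34 (SE 0.40, adjusted p = 0.012) by the authors' deposited table. Fdft1 had 64.2 and 104 against 15.8 and 28.4, Sqle 94.5 and 117 against 23.1 and 43.2, and Msmo1 113 and 149 against 24.2 and 33.8 normalized counts. For each of these 4 enzymes both positive-side libraries lay above both negative-side ones.

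Insig1, which holds the sterol-sensing machinery in the endoplasmic reticulum when sterols are plentiful, had 135 and 194 against 24.2 and 32.4 normalized counts. Its log2 fold change was 2.38 (adjusted p = 0.000247) by the authors' deposited table. Srebf2, the transcription factor that drives sterol synthesis, had 123 and 200 against 70.4 and 99.9 and was not called (0.88, adjusted p = 0.214, by the authors' deposited table). On the fatty acid side, the desaturases Scd1 and Fads1 were called. Scd1 had 320 and 372 against 46.2 and 62.1, and Fads1 178 and 181 against 42.0 and 41.9 normalized counts, with close agreement within each side for Fads1. LOC100912469, named Scd2 in RefSeq, had a mean of 1128 and was called at 1.76 in the authors' deposited table; its reads per library were not recovered. The synthases at the start of the pathway were not called: Fasn had 273 and 309 against 148 and 199 (0.72), and Acly, which supplies acetyl-CoA, 185 and 221 against 116 and 124 normalized counts (0.73 in the authors' deposited table).

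The promoters of Insig1 and Hmgcs1 are shown because they are sterol-regulated genes whose control is known to involve CCAAT boxes. Insig1 lies at chr4:8057720-8058019 on the minus strand and Hmgcs1 at chr2:53382054-53382353 on the plus strand of GRCr8 (RefSeq), with the same window; capitals mark the letters CCAAT, read on either strand as CCAAT or ATTGG, with 1 match in Insig1 and 2 in Hmgcs1.
Insig1: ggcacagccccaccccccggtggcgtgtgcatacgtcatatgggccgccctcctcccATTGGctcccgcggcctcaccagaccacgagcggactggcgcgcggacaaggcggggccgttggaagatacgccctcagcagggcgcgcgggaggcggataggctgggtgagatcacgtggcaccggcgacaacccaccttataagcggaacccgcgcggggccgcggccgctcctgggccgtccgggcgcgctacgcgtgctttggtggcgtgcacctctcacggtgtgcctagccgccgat
Hmgcs1: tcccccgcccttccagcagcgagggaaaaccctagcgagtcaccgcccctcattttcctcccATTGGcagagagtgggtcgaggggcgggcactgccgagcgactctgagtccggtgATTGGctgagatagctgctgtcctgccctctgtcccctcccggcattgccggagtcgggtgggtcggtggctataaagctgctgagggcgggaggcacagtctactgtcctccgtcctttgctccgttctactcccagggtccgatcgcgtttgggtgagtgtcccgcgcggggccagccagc
CCAAT was present in 49.4% of the 77 promoters of positive calls, in 37.2% of the 597 of uncalled transcripts and in 37.7% of all 27457 promoters, and the difference was not tested. The sterol regulatory element, searched on both strands in 2 forms, was found in 0 of the 77 promoters of positive calls, in 0 of the 597 of uncalled transcripts and in 0.27% of all promoters, which says only that its letters are not in this window. Promoters were matched for 77 of 98 positive calls, 7 of 13 negative calls and 597 of 766 uncalled transcripts.

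Among carriers of lipids, Clu, which encodes the chaperone and lipoprotein clusterin, had 368 and 348 against 52.5 and 172 normalized counts. The lipoprotein receptor Lrp1 had 362 and 382 against 164 and 173. Both were called, at 1.58 and 1.10 in the authors' deposited table, but neither remained called after the shift was subtracted. Without negative-side library 2 the log2 ratio of Clu was 2.77, and without library 1 it was 1.06. Apoe, the main lipid carrier of the brain and an astrocyte marker, had 492 and 272 against 140 and 693, so negative-side library 2 was the highest of the 4 and negative-side library 1 the lowest. It stood at -0.11 (adjusted p = 0.903) by the authors' deposited table.

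Markers of astrocytes and of fibroblasts overlap with the groups above. Of the 19 named astrocyte markers, 12 were called positive and 0 negative (7 positive after the shift was subtracted); the median log2 fold change was 1.58 over these 19 and 1.51 over all 26 with reads, per the authors' deposited table. The mean of 45 is taken over both sides, so a transcript can pass it through its high side alone, and counts of named members are descriptions. This showed in the fibroblast and meningeal markers, where 9 of 10 named members were called positive (6 after the shift was subtracted). Their median was 2.37, while the median over the 21 with a symbol and reads was -0.05, per the authors' deposited table. Rows of this list without a symbol, which these medians leave out, were Fbln2 (2.22, called), Col5a1 (0.41), Col5a2 (1.11) and a further row of Ogn (0.47). Among astrocyte markers the glutamate transporter Slc1a3 had 256 and 397 against 110 and 103 normalized counts and the glutamine synthetase Glul 220 and 209 against 49.4 and 66.2. The gap junction protein Gja1 had 144 and 164 against 25.2 and 68.9, and Mlc1, a membrane protein of astrocyte endfeet, 116 and 113 against 19.96 and 55.4. These 4 were called, at 1.49 to 1.80 in the authors' deposited table. Without negative-side library 2, the log2 ratio was 2.61 for Gja1 and 2.52 for Mlc1. Fabp7, a fatty acid binding protein of radial glia, had 54.4 and 80.6 against 42.0 and 95.9 and was not called at -0.02, and Sparcl1, a relative of Sparc made by astrocytes, had 78.6 and 19.6 against 27.3 and 146 and was not called at -0.71, per the authors' deposited table. Astrocyte markers therefore did not all lie on the positive side.

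**Figure D3:**
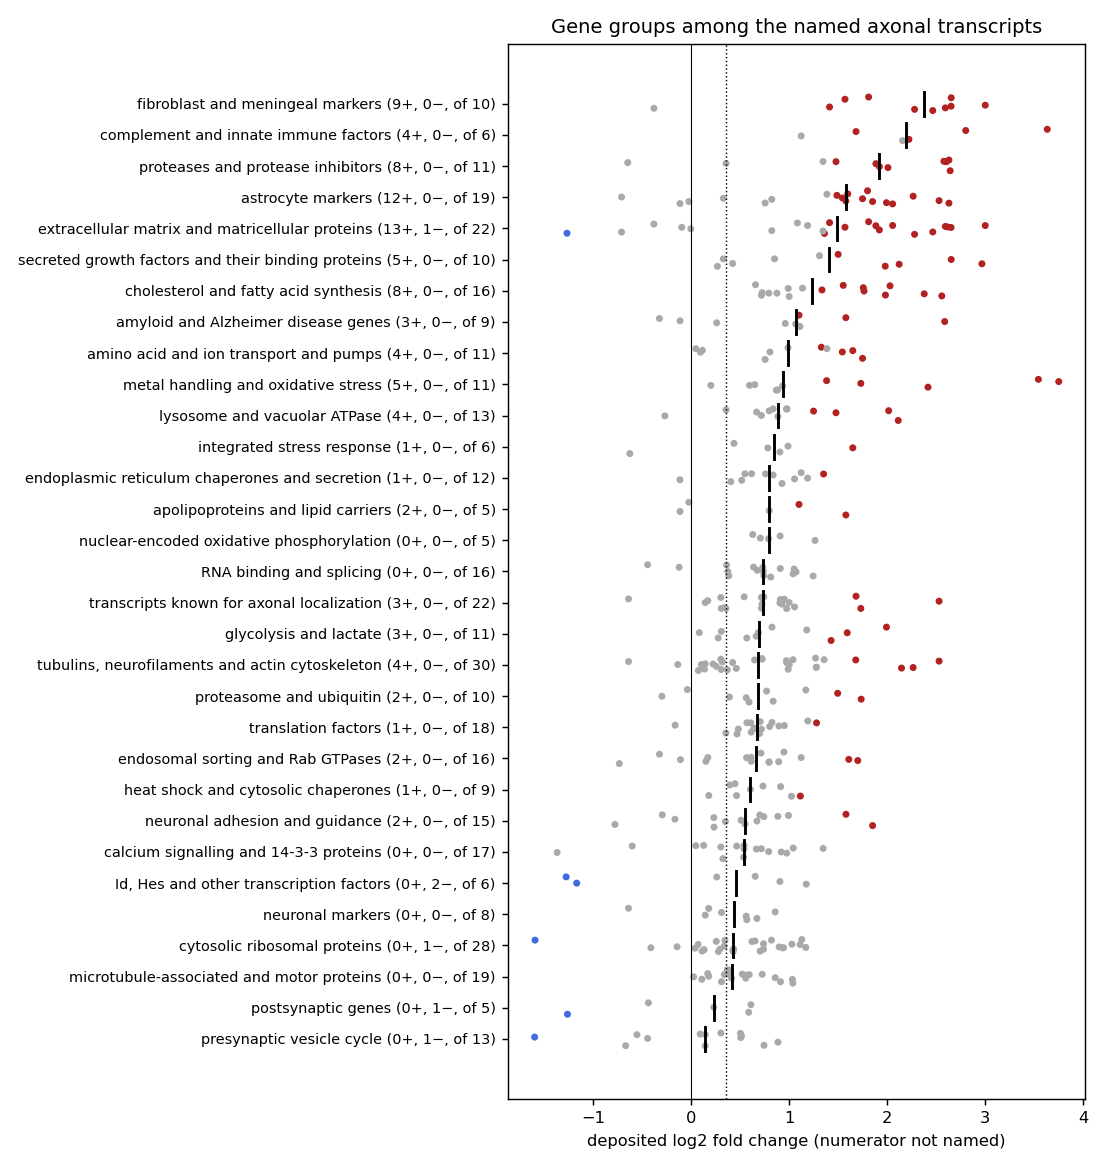
Deposited log2 fold change of the named members of each gene group with at least 5 of them, ordered by the group median (black bar); red, blue and grey points are positive calls, negative calls and uncalled transcripts. The dotted line is the median of all tested genes, 0.36, and medians run from 0.15 for the presynaptic vesicle cycle to 2.37 for fibroblast and meningeal markers.

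Neuronal genes lay closer to the middle. None of the 8 named neuronal markers was called by DESeq2, with a median of 0.44 in the authors' deposited table. Over the 23 neuronal markers with a symbol and reads the median was -0.06 there. Stmn2, a regulator of microtubules in growing axons, had 208 and 225 against 89.3 and 143 normalized counts, the adhesion molecule Ncam1 159 and 221 against 97.7 and 135, and Dcx, a microtubule protein of young neurons, 98.3 and 145 against 52.5 and 161. Dcx overlapped between the sides, and Stmn2 and Ncam1 did not. Their log2 fold changes were 0.86, 0.67 and 0.18 in the authors' deposited table. Of 19 named genes for microtubule-associated and motor proteins, 0 were called and 19 lay above 0, with a median of 0.41, near that of all tested genes, per the authors' deposited table. Map1b, the most abundant of them, had 562 and 872 against 370 and 751 normalized counts, and Dpysl2, a mediator of axon guidance signals, 365 and 555 against 160 and 276. Their adjusted p was 0.629 and 0.0714 in the authors' deposited table.

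Presynaptic genes had 13 named members of 40 with reads, with a median of 0.15; 0 were called positive and 1 negative in the authors' deposited table. Vamp2, the synaptic vesicle fusion protein, had 103 and 113 against 91.4 and 111 normalized counts, and Gap43, a growth cone protein, 80.1 and 121 against 59.9 and 122, so both overlapped between the sides. Bsn, a scaffold of the active zone, had 92.2 and 95.5 against 132 and 149 and was not called at -0.55 in the authors' deposited table. Of 5 named postsynaptic genes, 1 was called, the receptor gene Tacr1 on the negative side (-1.26, adjusted p = 0.0392 by the authors' deposited table). Shank1 (87.7 and 102 against 144 and 116 normalized counts) and Dlg4 (112 and 117 against 56.7 and 91.8) were not called, at -0.43 and 0.59 in the authors' deposited table. Of these scaffolds, the presynaptic Bsn and the postsynaptic Shank1 thus lay below 0, and the postsynaptic Dlg4 above it.

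Of 30 named genes for tubulins, neurofilaments and the actin cytoskeleton, 4 were called positive and 0 negative, and the 4 also remained called after the shift was subtracted. Besides the glial filaments Vim and Gfap, these were the actin-binding proteins Cnn3 and Flna. Cnn3 had 182 and 430 against 36.8 and 87.8 normalized counts and Flna 187 and 282 against 87.2 and 48.6; they stood at 2.15 and 1.68 in the authors' deposited table. The log2 ratio of Cnn3 ran from 1.55 without positive-side library 2 to 3.06 without negative-side library 2. Actb, whose mRNA is the textbook example of axonal transport, had 723 and 901 against 254 and 534 and was not called (1.00, adjusted p = 0.0777), and LOC100910937, named Tuba1a in RefSeq, had 683 and 655 against 255 and 805 and was not called at 0.32, per the authors' deposited table. Sptan1, the spectrin of the axonal membrane skeleton, had 354 and 503 against 211 and 298 normalized counts and was not called at 0.72 there. Among 22 named transcripts known for axonal localization, 3 were called positive (Vim, Stat3 and Prdx6) and 0 negative, and the median was 0.73 in the authors' deposited table. After the shift was subtracted, 1 of them was called. The counts of these lists stand beside a positive share of 11.2% of all named transcripts and were not tested against it.

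Neuronal adhesion and guidance genes had 2 positive calls among 15 named members, beside a positive share of 11.2% of all named transcripts. Both remained called after the shift was subtracted. Gpm6b, a membrane proteolipid of neurons and glia, had 311 and 364 against 104 and 71.6 normalized counts, and Cdh2, the adhesion molecule N-cadherin, 274 and 369 against 83.0 and 122. They stood at 1.85 and 1.58 in the authors' deposited table. Rtn4, the myelin-associated growth inhibitor Nogo, had 152 and 143 against 45.2 and 126 and Plxna2, a semaphorin receptor, 76.3 and 54.8 against 65.1 and 170; neither was called, at 0.74 and -0.78 in the authors' deposited table. Ctnnb1, the catenin that links cadherins to actin and carries Wnt signals, had 188 and 311 against 51.5 and 108 and was called at 1.55 in the authors' deposited table; it is in none of the lists, and its log2 ratio was 2.28 without negative-side library 2.

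Genes tied to amyloid and Alzheimer disease had 9 named members of 28 with reads, 3 called positive and 0 negative, of which 1 was called after the shift was subtracted. That gene was Prnp (ENSRNOG00000021259), the cellular prion protein, a membrane protein reported to bind Abeta oligomers. It had 162 and 189 against 21.0 and 31.1 normalized counts and stood at 2.59 (SE 0.52, adjusted p = 4.44e-05) by the authors' deposited table. App, the precursor of Abeta itself, had 425 and 314 against 121 and 220 and was not called at 1.07 (adjusted p = 0.0663), and Itm2b, an inhibitor of its processing, had 146 and 160 against 57.8 and 78.3 and was not called at 1.11, per the authors' deposited table. For both, the positive-side libraries lay above the negative-side ones, as they did in 52.3% of the named transcripts.

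Glycolysis had 3 positive and 0 negative calls among 11 named members (2 positive after the shift was subtracted), with a median of 0.69 in the authors' deposited table. The called enzymes were Aldoc, an aldolase typical of astrocytes (169 and 166 against 21.0 and 55.4 normalized counts), Aldoa, its common relative (184 and 200 against 44.1 and 90.5), and the pyruvate kinase Pkm (237 and 274 against 79.8 and 81.0). Without negative-side library 2, the log2 ratio was 2.99 for Aldoc and 2.12 for Aldoa. Eno1, with 186 and 208 against 45.2 and 120, was not called at 1.18 in the authors' deposited table. None of 5 named genes of oxidative phosphorylation was called, with a median of 0.79 there, though only 5 of 105 with reads had a mean of at least 45. Over the 105 the median was 0.33 in the authors' deposited table.

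Lysosomal genes had 4 positive and 0 negative calls among 13 named members, and 2 positive calls after the shift was subtracted, when Ctsd and Atp6v0a1 were no longer called. Lamp1, a main membrane protein of lysosomes, had 168 and 203 against 24.2 and 59.4 normalized counts, and Laptm4a, another lysosomal membrane protein, 58.2 and 107 against 18.9 and 13.5. The proton pump subunit Atp6v0a1 had 143 and 141 against 63.0 and 49.97. Together with Ctsd they stood at 1.25 to 2.11 in the authors' deposited table. The log2 ratio of Lamp1 was 2.94 without negative-side library 2. The most abundant lysosomal transcript, Psap, had 299 and 295 against 118 and 216 and was not called at 0.80, and Ctsb, a lysosomal cysteine protease, had 166 and 120 against 71.4 and 149 and was not called at 0.36, per the authors' deposited table. In endosomal sorting, Rab6a (106 and 141 against 25.2 and 44.6 normalized counts) and Rab31 (77.9 and 153 against 32.6 and 36.5), both small GTPases of vesicle traffic at the Golgi, were called positive among 16 named members. Neither of them was called after the shift was subtracted. The positive share of all named transcripts was 11.2%, and the counts of these lists were not tested against it.

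Ion pumps and amino acid carriers had 4 positive and 0 negative calls among 11 named members, of which 0 remained after the shift was subtracted. Atp1b2, a sodium pump subunit typical of glia, had 133 and 131 against 25.2 and 47.3 normalized counts and was called at 1.75 in the authors' deposited table. Slc3a2, the heavy chain of amino acid exchangers, had 85.4 and 167 against 42.0 and 31.1 and was called at 1.65, and its partner Slc7a5 had 71.1 and 112 against 44.1 and 43.2 and was not called at 0.99, per the authors' deposited table.

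Calls in protein synthesis and folding are set beside the positive shares of 11.2% of all named transcripts and 8.78% of all tested genes. The endoplasmic reticulum chaperone Canx had 218 and 239 against 58.8 and 112 normalized counts, the cytosolic chaperone LOC100362895 (Hsp90aa1 in RefSeq) 280 and 288 against 139 and 115, and the initiation factor Eif4g2 374 and 412 against 139 and 174. Each was the only call in its list, with 12, 9 and 18 named members, and none of them was called after the shift was subtracted. Whether these counts differ from the shares of all named transcripts or all tested genes was not tested. The elongation factor Eef1a1 had 441 and 534 against 217 and 363 and was not called at 0.72, and the chaperone Hspa5 had 107 and 144 against 57.8 and 68.9 and was not called at 0.93, per the authors' deposited table. Of 28 named ribosomal protein genes, 0 were called positive and 1 negative, with a median of 0.43 there. Rplp0, of the ribosomal stalk, had 124 and 148 against 141 and 83.7 normalized counts, which overlapped. RNA binding and splicing genes had 0 calls among 16 named members, with a median of 0.73 in the authors' deposited table. The ubiquitin ligase Nedd4 had 244 and 392 against 104 and 111 and was called at 1.5 in the authors' deposited table.

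Among the 111 calls, 33 were in none of the lists, 27 positive and 6 negative. Those with the smallest adjusted p on the positive side were Mfap4, a microfibril protein (193 and 287 against 43.1 and 10.8 normalized counts), and Ccdc80, a secreted matrix protein (133 and 230 against 35.7 and 18.9). Scn7a, a sodium channel relative found in glia and sensory neurons, had 92.2 and 104 against 12.6 and 9.45. Ppap2b, named Plpp3 in RefSeq, a phosphatase of lysophospholipids, had 85.4 and 138 against 9.45 and 18.9. These 4 stood at 2.53 to 2.89 in the authors' deposited table. The log2 ratio of Mfap4 ran from 2.48 without negative-side library 2 to 4.47 without library 1, and that of Ppap2b was 3.56 without negative-side library 2. Fzd1, a Wnt receptor, had 62.0 and 106 against 9.45 and 10.8, and Pea15, a phosphoprotein abundant in astrocytes, 245 and 339 against 78.8 and 71.6 normalized counts.

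Receptors and signals were also among the calls outside the lists; the following were picked after their values were seen. Csf1, the growth factor of microglia, had 99.8 and 187 against 28.4 and 29.7 normalized counts, and the hyaluronan receptor Cd44 135 and 110 against 34.7 and 21.6. The endothelin receptor Ednrb had 96.7 and 100 against 23.1 and 13.5, and Hif1a, the oxygen-sensing transcription factor, 62.7 and 96.3 against 12.6 and 18.9. The tetraspanins Cd81 (270 and 341 against 55.7 and 119) and LOC100911730, named Cd151 in RefSeq (62.7 and 132 against 7.35 and 23.0), were called at 1.72 and 2.41 in the authors' deposited table. The drug efflux pump Abcb1b had 89.9 and 198 against 13.7 and 32.4 normalized counts. Without negative-side library 2, the log2 ratio was 2.46 for Cd81, 3.73 for LOC100911730 and 3.40 for Abcb1b. Without positive-side library 2 it was 2.05 for LOC100911730 and 1.97 for Abcb1b. Kif1c, a kinesin that moves vesicles along microtubules, had 77.1 and 122 against 21.0 and 25.7 and stood at 1.93 (adjusted p = 0.012) by the authors' deposited table. For each of these 8 transcripts both positive-side libraries lay above both negative-side ones. Cdkn1a, the cell cycle inhibitor p21, which is in the cell cycle list, had 56.7 and 122 against 18.9 and 4.05 and was called at 2.57 (adjusted p = 0.00482) by the authors' deposited table; the lowest of these values rests on 3 reads, and the log2 ratio ran from 2.24 without that library to 4.46 without the other negative-side one.

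The 13 negative calls were spread over unlike functions. Stab1, a scavenger receptor of macrophages and sinusoidal endothelium, had 23.4 and 21.1 normalized counts on the positive side, against 111 and 99.9 on the negative side. It had the lowest fold change of all calls, at -2.08 (SE 0.55, adjusted p = 0.00399) by the authors' deposited table. It was the sole call among microglia and macrophage markers, of which 17 had a symbol and reads and 2 a mean of at least 45. The other, the lysozyme Lyz2, had 54.4 and 5.48 against 113 and 37.8 and overlapped between the sides.

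Rimbp2, which ties calcium channels to synaptic vesicles at the active zone, had 83.9 and 41.5 against 246 and 161 normalized counts. Tacr1, the receptor of substance P, had 252 and 103 against 540 and 354. Gpr83, a G protein-coupled receptor of the brain, had 32.5 and 13.3 against 74.6 and 79.7. Rimbp2, Tacr1 and Gpr83 stood at -1.60, -1.26 and -1.59 in the authors' deposited table. In all 3, positive-side library 2 was the lowest, and it differed from positive-side library 1 by a wider fold than that library did from the nearest negative-side one. Without positive-side library 1 their log2 ratios were -2.29, -2.12 and -2.54 in the same order.

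The transcriptional repressors Hic2, a zinc finger protein, and Cry2, a part of the circadian clock, had 115 and 73.6 against 228 and 249, and 109 and 78.3 against 225 and 212 normalized counts. They were the only calls among the 6 named members of the list of Id, Hes and other transcription factors, which does not hold Stat3 or Hif1a, at -1.27 and -1.17 in the authors' deposited table. These 2 had narrower gaps within each side than between the nearest libraries of the 2 sides.

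Other negative calls beside Lama1 are poorly characterised or repetitive. Rn5s, the 5S RNA of the large ribosomal subunit, had 34.0 and 4.70 against 86.1 and 89.1 normalized counts, and its log2 ratio ran from -1.37 without positive-side library 2 to -4.22 without positive-side library 1. LOC100364265, named Rpl19l4 in RefSeq, had 278 and 84.5 against 729 and 446, LOC100362110 479 and 279 against 975 and 833, LOC100362172 48.4 and 11.0 against 150 and 66.2, and LOC683469, named Eloa2l in RefSeq, 31.7 and 15.7 against 76.7 and 75.6. Without positive-side library 1 the log2 ratio was -2.80 for LOC100364265, -3.30 for LOC100362172 and -2.28 for LOC683469. Without positive-side library 2 it was -1.08 and -1.16 for LOC100364265 and LOC100362172. Where near-identical copies exist, reads may be shared between them, which makes these values uncertain. Within the positive side the 2 libraries of a negative call differed by a median of 2.02-fold, more than the 1.11-fold within the negative side. All 13 kept the negative side above the positive side in each of the 4 pairs of libraries, but only 6 did so by at least 2-fold in every pair.

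The somatic table asks whether the same transcripts differed in the cell bodies. In soma 0 of 18995 genes were called in the authors' deposited table (DESeq2, 0.00%), and 2 had an unadjusted p under 0.05. With no effect at all, many more such p-values would arise, so the somatic fold changes were narrow for their SEs. The lack of somatic calls therefore does not show that the cell bodies were unchanged. The 98 positive axonal calls had a median somatic log2 fold change of 0.0007, within a range of -0.37 to 0.42, per the authors' deposited table. The difference between the axonal and the somatic fold change was tested for 875 named transcripts with a two-sided z test over both standard errors, adjusted over 18406 genes. It passed for 5, which is 0.571% of the named transcripts and 0.0326% of all genes, and each had the higher value in axons. Besides Cp and Chi3l1, these were Gsta1, Sparc and Gas6, with axonal minus somatic differences of 4.11 (SE 0.89), 3.07 (SE 0.67) and 2.87 (SE 0.63). Their adjusted p by this z test on the DESeq2 values was 0.0152 for each. The shift of 0.44 was not subtracted here, so each difference includes it, and how many pass without it was not tested. The differences also take both comparisons to have the same numerator, which the headers do not state. How many pass with the somatic sign turned was not tested. When adjusted over the 1312 genes with an axonal mean of at least 45, the difference passed for 21 named transcripts. For the other positive axonal calls, this test thus did not show that the compartments differ.

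**Figure D4:**
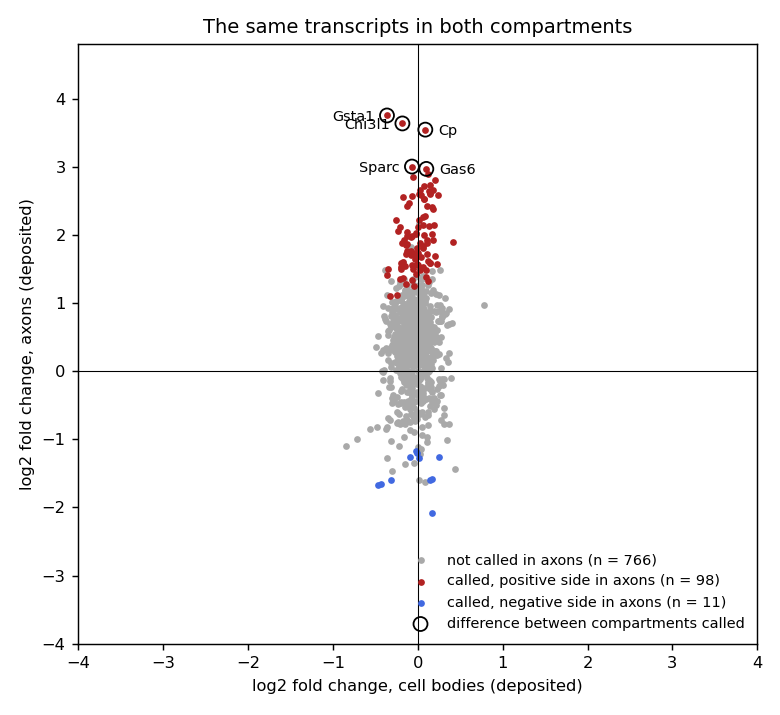
Deposited log2 fold change in cell bodies (horizontal) and in axons (vertical) for the named transcripts in both tables, with positive axonal calls in red, negative ones in blue and uncalled ones in grey. Circles mark the 5 transcripts whose difference between compartments was called; red points spread up to 3.75 in axons but lie between -0.37 and 0.42 in cell bodies.

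Abundance set the compartments apart in another way, although the tables were normalized separately, so levels across them are approximate. The median somatic mean was 257 normalized counts for positive calls, 246 for uncalled transcripts and 24.5 for negative calls. The axonal mean exceeded the somatic mean for 12 of 13 negative calls, for 16 of 98 positive calls and for 54 of 766 uncalled transcripts. Stab1 was the exception among negative calls, with 64.0 in axons and 513 in soma. Tacr1 had axonal and somatic means of 312 and 12.7, Hic2 166 and 22.2, and Gpr83 50.02 and 1.28, while Rn5s and LOC683469 had a somatic mean of 0, per the authors' deposited table.

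Some positive calls were also higher in axons; the following were picked after their values were seen. Ltbp2, a binding protein of latent transforming growth factor, had means of 116 in axons and 4.26 in soma, Ctgf 138 and 9.05, Col1a1 213 and 18.8, Col1a2 93.6 and 18.2, Htra1 60.6 and 5.64, and Serpina3n 54.7 and 0.842, per the authors' deposited table. Ltbp2 had 111 and 264 against 71.4 and 16.2 normalized counts in the axonal libraries, with log2 ratios from 1.34 without positive-side library 2 to 3.53 without negative-side library 1. At the other end, Ptn had 84.6 in axons and 868 in soma, and Laptm4a 49.5 and 402, per the authors' deposited table.

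**Figure D5:**
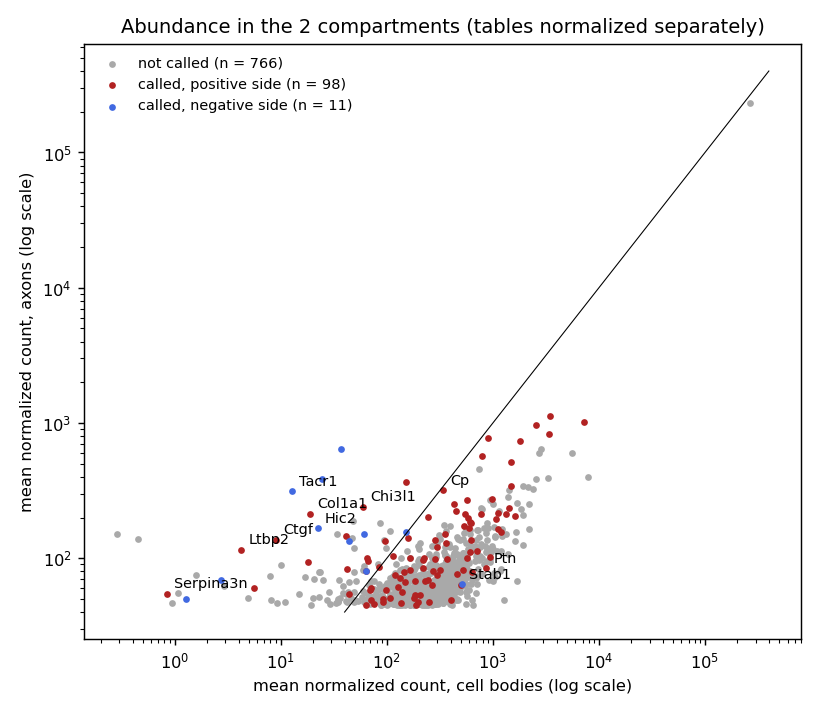
Mean normalized count in cell bodies and in axons, both on log axes, for the named transcripts with somatic reads; the line marks equal means, and the tables were normalized separately. Negative calls (blue) lie above the line except Stab1 (64.0 in axons, 513 in soma), and Serpina3n is the red point farthest to the left, with a somatic mean of 0.842.

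How often a transcript was called went with its abundance. Of the 400 named transcripts with a mean of 45 to 60, 4.75% were called positive, and of those with 60 to 100, 9.73%. The share was 20% at 100 to 200, 44.4% at 200 to 500 and 61.5% among the 13 at 500 or above. The median SE of the log2 fold change fell from 0.60 in the lowest class to 0.40 in the highest, and the median fold change itself lay at 0.41 and 1.74, per the authors' deposited table. In the lowest class the smallest fold change called was 1.53 in size, while Megf9, at 1.6, was not called in the authors' deposited table. The 10 most abundant named transcripts include Vim, Ncan, Gfap, Cst3 and LOC100912469 among the positive calls, LOC100362110 among the negative calls, and Actb and Map1b among the uncalled. The most abundant, LOC310926, had a mean of 233184 and stood at 0.88 (adjusted p = 0.151) by the authors' deposited table.

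Gene length and base composition were compared between the classes. The median span of the gene in RefSeq was 25.2 kb for positive calls, 30.2 kb for negative calls and 37.3 kb for uncalled transcripts. The GC content of the promoter window had medians of 61.7%, 62.7% and 64.3% in the same order. These are descriptions with no test.

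The minimum of 45 divides a continuous range. Just above it lay Hnrnpf (mean 45.02, log2 fold change 1.07), Os9 (45.03, -0.03) and Rwdd2a (45.06, -0.84), and just below it Ubr2 (44.90, 0.00), Fam65a (44.95, 1.16) and Lhx2 (44.99, 0.95), all uncalled in the authors' deposited table. The threshold on the adjusted p divides one as well. Nearest beyond it on the positive side were Megf9, a transmembrane protein of neurons (47.6 and 101 against 17.9 and 25.7 normalized counts; adjusted p = 0.0501), the collagen receptor Ddr1 (0.0525) and the cyclin relative Ccng1 (0.0528) in the authors' deposited table. On the negative side these were LOC689258 (-1.35, adjusted p = 0.0556) and the calcium channel Cacna1e (-1.46, adjusted p = 0.0583) by the authors' deposited table.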

How the data were processed

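The 4 axonal and 4 somatic RNA-seq samples were grouped by their titles. The submitters' processing notes name Trim Galore, TopHat2, SAMtools and DESeq2. Neither tool versions nor build, annotation or read counter were given in the sources used here. The 2 tables, 1 per compartment, hold the authors' own comparisons. Per the file headers, each gives a mean normalized count over the libraries (a signal the authors made with size factors), the log2 fold change and its SE (log2 values deposited by the authors, drawn toward 0 relative to the recovered ratios), a deposited Wald score, and the deposited p-value with its adjusted value. The headers do not name the numerator, so signs are as deposited.

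Calls are the authors' adjusted p under 0.05 (DESeq2, Benjamini-Hochberg), which is given to 1321 axonal genes. No count test was run, since the tables hold no library. Whole reads per library were recovered from the digits of means up to 1000, with 1 solution for 100% of values; shifted decoy values had a solution in 2.56% of cases for means of 500 to 1000 and in 0% below that. Recovered values are descriptions, and the log2 ratio of the sides is the ratio of the mean recovered values. Counting error is the only error that reads cover. The axonal minus somatic difference was tested by a two-sided z test, adjusted over 18406 genes. It assumes the same numerator in both comparisons. Recovery and z test were tried on simulated data. The simulated fold changes varied by exactly the deposited SEs, so they cannot show how the z test behaves where real values are narrower.

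The transcripts and the 36 gene lists were chosen with earlier results of these data known, so lists are given by counts and medians with no test. List members were matched by the deposited symbol or the RefSeq symbol of assembly GRCr8. Only rows with a deposited symbol were counted. Named are the 30 positive calls of smallest adjusted p, all negative calls, in each list the called members and the 3 uncalled ones of highest mean, those nearest the minimum of 45 and the threshold, and the 10 most abundant, with some left out or not reported here. Promoter sequences are RefSeq's. Python 3.11.15, NumPy 2.4.6, pandas 2.3.3, SciPy 1.17.1 and matplotlib 3.10.9 were used. Alternatives tried were other adjustments, thresholds, minimums, centring, RefSeq symbols and leaving out each recovered library.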

Additional observations from a re-analysis of the deposited data

Results flagged for a closer look

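For 5 named transcripts the axonal and the somatic log2 fold change differed by a test of the difference itself (two-sided z test on the deposited DESeq2 values, adjusted over 18406 genes), always with the higher value in axons. Chi3l1 had a difference of 3.82 (SE 0.71, adjusted p = 0.00164). The difference was 4.11 for Gsta1, 3.45 for Cp, 3.07 for Sparc and 2.87 for Gas6, each with an adjusted p of 0.0152 by that test. The axonal shift of 0.44 was not subtracted, and whether the 5 pass without it was not tested. Both comparisons were taken to have the same numerator, which the headers do not state.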

How the results depend on the processing

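No paired analysis was possible because the deposited tables have no column per sample and the recovered libraries carry no replicate number of the labels. Called positive were 98 named transcripts, but 53 with adjustment over all 8032 genes of mean 10 or more, 37 when adjusted over every gene with reads, 53 at an adjusted p under 0.01, 57 after the shift of 0.44 was subtracted, and 50 of the 179 with a mean of at least 100. The 13 negative calls became 1, 0, 1, 24 and 7 in the same order (22 had an unadjusted p under 0.05 in the DESeq2 values, and no other tool was run), and 20 at an adjusted p under 0.1. Of the calls as deposited, 57 positive and 13 negative ones remained after the shift was subtracted. A ratio of the sides of at least 2-fold was seen in 209 of 874 transcripts toward the positive side and in 32 toward the negative side. Leaving out each library gave 166 to 316 and 22 to 54; the highest values came without negative-side library 2 and positive-side library 1. The called transcripts kept their direction whichever library was left out (96 of 96 and 13 of 13). This was fixed in advance, because the sides of these transcripts did not overlap with all libraries in. The median fold of the negative calls ran from 2.26 without positive-side library 2 to 4.87 without positive-side library 1, around 3.24. The difference between compartments passed for 5, and for 21 when adjusted over the 1312 genes with an axonal mean of at least 45. The shift was subtracted in neither. None of 1202 alternatives for single transcripts reversed a direction that had been called, which could not have come out otherwise. Only called transcripts could count as reversed, and their recovered sides did not overlap. Each positive call also lay above the shift of 0.44, and subtracting it moves negative calls further from 0. Where a count changed, the cause was not tested beyond the number of genes adjusted over.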
